A study of Mus musculus with 3 samples.

Results

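The caudal-type homeobox genes Cdx1, Cdx2 and Cdx4 were examined in single cells of mouse embryos at the onset of somite formation. The members were found by gene symbol among the 31054 features of the count matrices, and all 3 were present, each as a single feature. In GRCm38 coordinates, Cdx1 (ENSMUSG00000024619) lies on the minus strand of chromosome 18 from 61018862 to 61036199, Cdx2 (ENSMUSG00000029646) on the minus strand of chromosome 5 from 147300805 to 147307270, and Cdx4 (ENSMUSG00000031326) on the plus strand of chromosome X from 103321398 to 103330592. The libraries came from 3 embryos with a WT genotype, of the C57BL/6 x 129 SvEv strain, harvested at embryonic day 8 with 0 to 1 somite after removal of extraembryonic tissue. Every embryo was dissociated and sequenced as a library of its own, so that the embryo is the replicate and no treatment, allele or second time point was compared. The study made these libraries to describe the left-right organizer, and the Cdx genes were compared here between lineages of the same embryos. Per the study, all embryos were male by genotyping, so that Cdx4, on the X chromosome, was present in a single copy per cell.

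Cdx proteins are homeodomain transcription factors that are made in the posterior of the vertebrate embryo. They pass on Wnt, FGF and retinoic acid signals to the Hox genes, keep the posterior growth zone supplied with progenitors, and Cdx2 also sets intestinal identity in the hindgut and acts in trophoblast. Mice that lack Cdx1 have shifted vertebral identities, and combined losses of Cdx genes shorten the body axis and impair the allantois.

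The RefSeq promoter table held 2 of the 3 members, Cdx2 and Cdx4, whose promoters are shown. It held no Cdx1 window to compare with them. Each runs 5′ to 3′ on the strand of the gene, from 250 bases before to 50 after its start. The Cdx2 window is chr5:147307200-147307499 on the minus strand and the Cdx4 window chrX:103321148-103321447 on the plus strand (GRCm38.p6). Capitals mark the octamer ATGCAAAT, the sequence bound by POU-domain factors such as Oct4.
Cdx2: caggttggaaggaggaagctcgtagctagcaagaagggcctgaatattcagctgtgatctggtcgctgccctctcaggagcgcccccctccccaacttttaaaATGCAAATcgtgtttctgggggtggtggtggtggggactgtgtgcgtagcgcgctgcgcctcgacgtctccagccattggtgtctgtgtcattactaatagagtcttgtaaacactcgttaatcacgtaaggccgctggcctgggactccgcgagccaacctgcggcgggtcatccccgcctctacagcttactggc
Cdx4: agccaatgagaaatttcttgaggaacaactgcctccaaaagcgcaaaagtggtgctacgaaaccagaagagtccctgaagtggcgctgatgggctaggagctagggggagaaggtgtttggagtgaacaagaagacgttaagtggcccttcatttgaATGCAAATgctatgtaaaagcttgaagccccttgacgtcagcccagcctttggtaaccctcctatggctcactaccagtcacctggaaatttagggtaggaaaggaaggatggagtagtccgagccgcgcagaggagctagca
The octamer, searched on both strands after the sequences had been seen, was found once in each window, at -147 in Cdx2 and at -93 in Cdx4 relative to the RefSeq start of each window, which for Cdx2 lies inside the GENCODE gene given above. It was present in 1.74% of the 32817 promoter windows of the table. The core CTTTG of the TCF/LEF motif, held by 54.0% of windows, was found once in Cdx4 and not in Cdx2. TTTATNG, a Cdx motif held by 10.9% of windows, was in neither. These matches describe letters in a window and no binding was measured.

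The matrices held 6579, 8621 and 8333 barcodes for embryos 1, 2 and 3, with a median of 26011, 14050 and 15674 unique molecular identifiers (UMIs, which count each captured molecule once) per barcode. After quality control 21202 cells were kept. Among the 22168 cells that passed the thresholds, before clusters were removed, 51 barcode sequences occurred in 2 libraries. Levels are given in CPM, the UMIs of a gene divided by those of all genes, summed over the cells of a class in an embryo, and multiplied by 1000000. Over all kept cells of embryos 1, 2 and 3, Cdx1 had 35499, 17388 and 20809 UMIs, Cdx2 had 22609, 14346 and 17214, and Cdx4 had 6769, 6993 and 5462.

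Cells were placed in classes by marker UMIs and are called by the marker. At least 2 UMIs were required of Nkx1-2 (caudal epiblast, 1834 cells), Tbx6 (presomitic mesoderm, 599 cells), Tbx4 (allantois, 642 cells) or Hand1 (lateral plate, 2420 cells), and at least 1 each of Trh and Sox17 (gut, 798 cells). Cells with Nkx1-2 and Tbx6 and no other gate formed a class of 282 cells. Cells with Tbx4 and Hand1 and no other gate were counted as Tbx4+, and 568 of the 642 Tbx4+ cells also had at least 2 Hand1 UMIs, so that the Hand1+ class holds only cells under the Tbx4 threshold. Cells that passed several other gates (20.4% of kept cells) or none (26.3%) were left out. Those with several gates held 12946, 4844 and 7528 Cdx1 UMIs and 2929, 2104 and 1897 Cdx4 UMIs in embryos 1, 2 and 3. They were deep, with a median of 43623, 25407 and 30790 UMIs. The class values therefore leave out part of the Cdx RNA. With or without another gate, 3890 kept cells passed the Nkx1-2 gate, 1869 the Tbx6 gate and 5267 the Hand1 gate, against the class sizes given above. Genes not used in the gates were checked across these 5 classes. All 6 check genes of Tbx6+ cells and all 5 of Trh/Sox17+ cells had their highest mean there, and so had 4 of 5 of Tbx4+ cells, with Hoxa10 at 121 ± 5.94 CPM (SD, n = 3 embryos, as throughout) and Pitx1 at 269 ± 62.1 CPM. Outside the 5 classes, however, the Trh/Sox17+ check genes Foxa2 and Krt8 had higher means in node cells, and Spink1 in extraembryonic endoderm. Hand1+ cells were highest for 2 of 5, Bmp4 and Pmp22, while Foxf1, Hand2 and Gata4 were higher in Tbx4+ cells. Bmp4 was nearly as high in Tbx4+ cells, at 153 ± 11.1 CPM against 156 ± 11.3 CPM. The markers checked thus did not set the Hand1+ class apart as lateral plate. Nkx1-2+ cells were highest for only 1 of 5, Sox2 at 99.98 ± 4.43 CPM, since the means of T, Wnt3a and Fgf8 were higher in Tbx6+ cells and that of Cyp26a1 in Trh/Sox17+ cells, so that the markers checked did not set this class apart as caudal epiblast.

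The threshold of the Nkx1-2 gate was passed narrowly by cells with intermediate Cdx levels. Cells with exactly 2 Nkx1-2 UMIs had 368 ± 117 CPM of Cdx1 and 185 ± 76.6 CPM of Cdx2, and cells just outside, with 1 UMI and no other gate, 224 ± 63.6 and 123.7 ± 44.5 CPM. Around the Tbx4 threshold, Cdx2 was at 232 ± 14.9 CPM in the 264 Tbx4+ cells with 2 Tbx4 UMIs. It was at 95.3 ± 45.1 CPM in the 63 cells with 1 Tbx4 UMI and no other gate. The latter had fewer than 2 Hand1 UMIs, whereas most Tbx4+ cells had at least 2, so that the groups differ in Hand1 as well.

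Cdx1 was the member that separated Nkx1-2+ and Tbx6+ cells from the other 3 classes. Its level was 531, 556 and 439 CPM in Nkx1-2+ cells of embryos 1, 2 and 3, and 489, 375 and 389 CPM in Tbx6+ cells. In Trh/Sox17+ cells it was 77.9, 98.1 and 109 CPM. Every embryo of the first 2 classes lay above every embryo of Trh/Sox17+ cells. Hand1+ cells had 78.5, 65.8 and 64.2 CPM. The lowest of the 5 classes was Tbx4+, with 43.6, 29.5 and 29.6 CPM, all below the lowest value of Trh/Sox17+ and Hand1+ cells.

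In order of the mean, Cdx1 was highest in Nkx1-2+ (509 ± 61.4 CPM), Nkx1-2/Tbx6+ (469 ± 63.6) and Tbx6+ cells (418 ± 62.4), 3 neighbours whose ranges overlapped. A gap followed to surface ectoderm (173 ± 56.5), whose highest embryo stood at 237 CPM. Node, Trh/Sox17+, somitic, Hand1+ and other neural plate cells came next, from 97.4 ± 40.2 to 67.0 ± 14.5 CPM, and neighbours among them overlapped.

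Between the classes, sums of UMIs per embryo were tested with edgeR (glmQLFit and glmQLFTest), adjusted by Benjamini-Hochberg over all genes tested. Cdx1 passed an adjusted p of 0.05 in 9 of the 10 pairs of the 5 classes. In Nkx1-2+ cells it was higher by 3.97 ± 0.17 on the log2 scale (standard error, adjusted p = 4.76e-14) than in Tbx4+ cells, in a comparison that called 37% of genes. It was higher by 2.47 ± 0.15 than in Trh/Sox17+ cells (7.89e-12, 47.5% of genes called) and by 2.89 ± 0.15 than in Hand1+ cells (9.61e-13, 33.4% called). Tbx6+ cells exceeded Tbx4+ cells by 3.68 ± 0.17 (4.81e-13, 30.1% called), Trh/Sox17+ cells by 2.19 ± 0.15 (7.25e-11, 42.9% called) and Hand1+ cells by 2.61 ± 0.15 (1.1e-11, 23.1% called). Tbx4+ cells were lower than Trh/Sox17+ cells, at -1.50 ± 0.17 (2.64e-07, 45.2% called), and than Hand1+ cells, at -1.08 ± 0.17 (2.13e-04, 7.7% called). The difference between Trh/Sox17+ and Hand1+ cells was small, 0.42 ± 0.15 (0.0267, 42.9% called), and was lost without embryo 2 (0.36, adjusted p = 0.19) or embryo 3 (0.24, 0.272). Nkx1-2+ and Tbx6+ cells differed by 0.28 ± 0.14 (0.234, 12.2% called), which passed with the embryo as a block (0.28 ± 0.096, adjusted p = 0.0374). There the block raised the genes called from 1516 to 2565 of 12451.

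**Figure D1:**
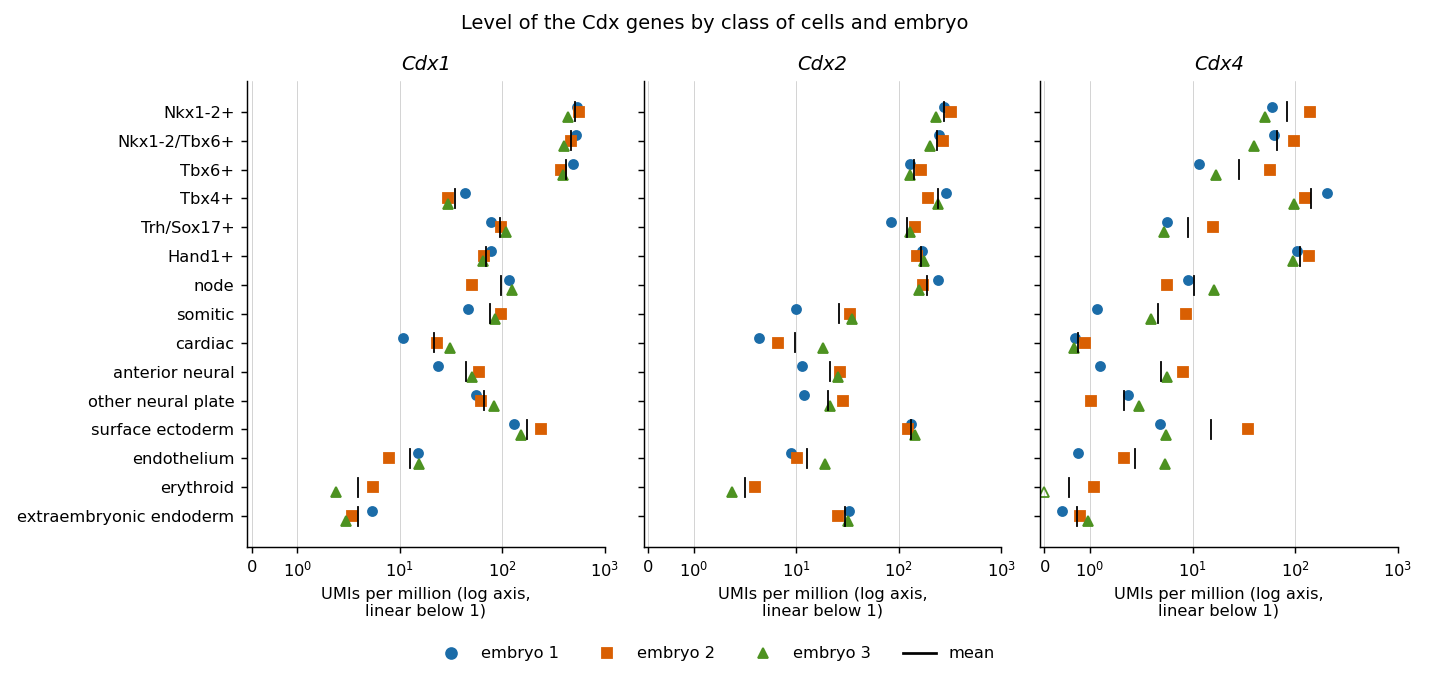
Level of Cdx1, Cdx2 and Cdx4 (CPM, on a logarithmic axis that is linear below 1) in 15 classes of cells, with 1 symbol per embryo and a bar at the mean. Cdx1 is higher in each embryo of the 3 upper classes than in any other class, Cdx2 is more even over the upper 7 classes, and Cdx4 is highest in Tbx4+, Hand1+ and Nkx1-2+ cells.

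Cdx2 was spread more evenly. Nkx1-2+ cells of embryos 1, 2 and 3 had 276, 327 and 233 CPM. Tbx4+ cells had 289, 195 and 243 CPM, which overlapped that range. The level was 168, 152 and 175 CPM in Hand1+ cells and 130, 165 and 130 CPM in Tbx6+ cells. Trh/Sox17+ cells had 84.9, 144 and 130 CPM, which overlapped Tbx6+ but not Hand1+ cells.

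Of the 10 pairs, Cdx2 passed the test in 6, or 7 with the embryo as a block. Per pair, 7.7% to 47.5% of all genes were called without the block. Its largest difference was that of Nkx1-2+ over Trh/Sox17+ cells, 1.27 ± 0.17 (edgeR, adjusted p = 1.38e-06), followed by Tbx4+ over Trh/Sox17+ cells at 1.03 ± 0.17 (3.28e-05). Nkx1-2+ cells were also higher than Tbx6+ cells by 0.99 ± 0.17 (1.95e-04) and than Hand1+ cells by 0.77 ± 0.16 (5.6e-04), and Tbx6+ cells were below Tbx4+ cells at -0.75 ± 0.17 (0.00186). Trh/Sox17+ cells were below Hand1+ cells at -0.50 ± 0.17 (0.0181), which did not pass without embryo 1 (-0.28, 0.188) or embryo 3 (-0.53, 0.0788). Nkx1-2+ and Tbx4+ cells, the upper pair, differed by 0.24 ± 0.16 (0.265), and by -0.0018 without embryo 2 (0.999). Tbx4+ cells were above Hand1+ cells by 0.53 ± 0.16 just past the threshold (0.0506), and passed with the embryo as a block (0.51 ± 0.13, 0.00624). For this pair the block raised the genes called from 959 to 2069 of 12451.

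Cdx4 had its highest means in Tbx4+ and Hand1+ cells. Tbx4+ cells had 205, 124 and 97.0 CPM in embryos 1, 2 and 3, and Hand1+ cells 105, 136 and 95.8 CPM. Nkx1-2+ cells had 60.1, 140 and 50.4 CPM, so that embryo 2 was above Hand1+ cells of every embryo and embryos 1 and 3 were below them. In Tbx6+ cells the level was 11.5, 56.8 and 17.1 CPM. Trh/Sox17+ cells had the lowest values of the 5 classes, 5.68, 16 and 5.25 CPM.

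In 7 of the 10 pairs Cdx4 passed the test, and in 9 with the embryo as a block. The share of all genes called per pair was 7.7% to 47.5% without the block. Trh/Sox17+ cells were below Tbx4+ cells by 4.01 ± 0.53 on the log2 scale (edgeR, adjusted p = 1.57e-06) and lower than Hand1+ cells at -3.72 ± 0.52 (3.2e-06). Nkx1-2+ cells exceeded them by 3.30 ± 0.52 (1.54e-05) and Tbx6+ cells by 1.59 ± 0.61 (0.038), the latter not without embryo 3 (1.61, 0.105). Tbx6+ cells were below Tbx4+ cells at -2.42 ± 0.48 (5.28e-04) and below Hand1+ cells at -2.13 ± 0.47 (0.00157). Nkx1-2+ cells were above Tbx6+ cells by 1.70 ± 0.47 (0.0177), which failed without embryo 1 (1.41, 0.122), without embryo 3 (1.76, 0.0986) and in DESeq2 (1.55, 0.164). Nkx1-2+ cells were not separated from Tbx4+ cells (-0.72 ± 0.40, 0.175) or Hand1+ cells (-0.43 ± 0.39, 0.444). With the embryo as a block both differences passed, at -0.79 ± 0.22 (0.00409) and -0.54 ± 0.20 (0.0266), and so they did without embryo 2, at -1.36 (0.0024) and -0.85 (0.0283). In these 2 comparisons the block raised the genes called from 4604 to 5925 and from 4154 to 5926, of 12451 tested. Tbx4+ and Hand1+ cells differed by 0.29 ± 0.40 (0.774), of opposite sign without embryo 1 (-0.09, 0.953).

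**Figure D2:**
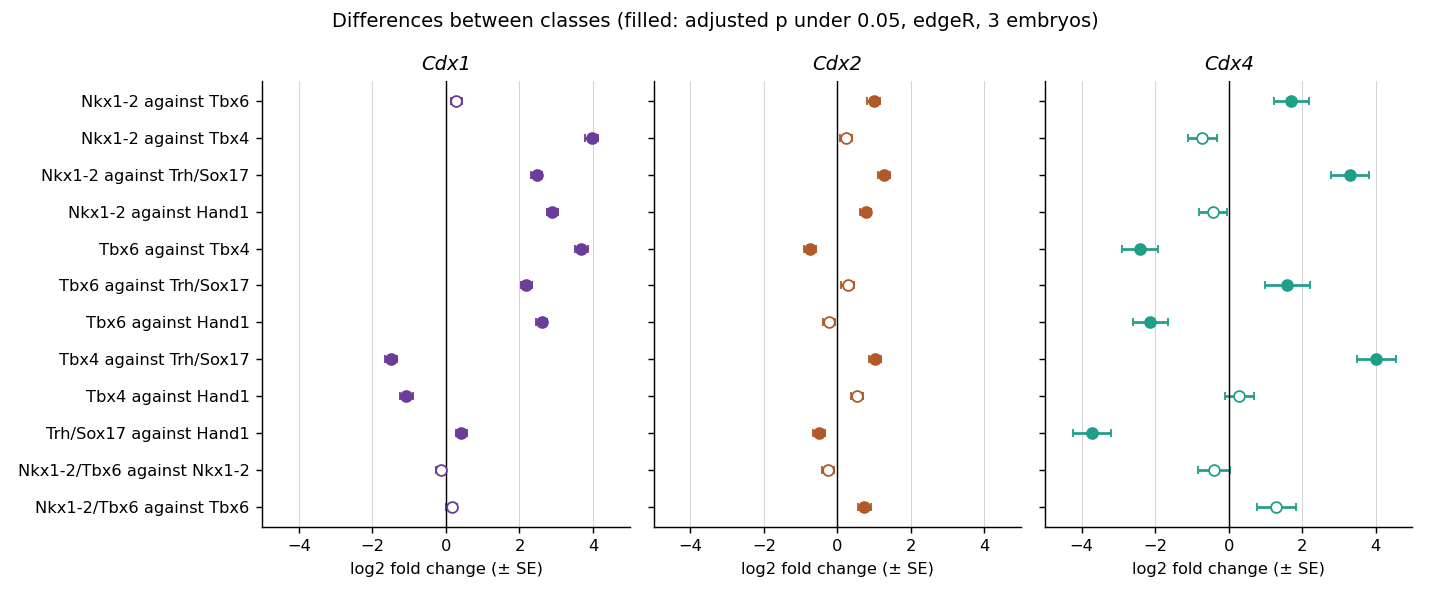
Log2 fold change of Cdx1, Cdx2 and Cdx4 between classes (first minus second class named, horizontal bars are standard errors, 3 embryos). Filled points passed an adjusted p of 0.05: 9 of the upper 10 pairs for Cdx1, 6 for Cdx2 and 7 for Cdx4.

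Cells with both Nkx1-2 and Tbx6 UMIs had means between those of Nkx1-2+ and Tbx6+ cells for each member. They had 530, 473 and 403 CPM of Cdx1, 247, 268 and 200 CPM of Cdx2, and 61.6, 98.2 and 39.9 CPM of Cdx4. Against Nkx1-2+ cells, a comparison in which 1.86% of genes were called, none of the members passed in edgeR: Cdx1 differed by -0.13 ± 0.14 (adjusted p = 0.949), Cdx2 by -0.25 ± 0.17 (0.801) and Cdx4 by -0.40 ± 0.44 (0.954). Against Tbx6+ cells, with 1.53% of genes called, Cdx2 was higher by 0.74 ± 0.17 (0.0293), with the largest adjusted p over the single embryos left out at 0.231 and the smallest at 0.0764. Cdx4 was higher by 1.30 ± 0.52 (0.324), and by 1.43 ± 0.34 with the embryo as a block (0.0116), and Cdx1 by 0.15 ± 0.14 (0.87). The ranges of Cdx1 overlapped between the 3 classes, whereas Cdx2 in cells with Tbx6 alone was below both other classes in every embryo.

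Nkx1-2+ cells were then divided by the mesodermal transcription factor T (Brachyury) and the neural and pluripotency factor Sox2, each at 1 UMI or more. Cells with both, as neuromesodermal progenitors have, numbered 328, 215 and 233 in embryos 1, 2 and 3, and cells with Sox2 and no T 258, 186 and 193. Cdx4 was at 84.1, 154 and 58.9 CPM with both and at 18, 93.6 and 25.5 CPM without T. Cdx2 was at 327, 328 and 246 CPM against 198, 308 and 212 CPM. For Cdx1 the values were 618, 566 and 432 CPM against 416, 515 and 425 CPM. Each member was higher with T in 3 of 3 embryos, although the ranges of the groups overlapped. Embryo 3 differed least for Cdx1.

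In the test without a block, which called 0.744% of genes, none of the members passed (edgeR): the difference was 0.25 ± 0.14 for Cdx1 (adjusted p = 1.00), 0.33 ± 0.17 for Cdx2 (1.00) and 1.20 ± 0.49 for Cdx4 (0.652). With the embryo as a block all 3 passed, Cdx1 at 0.28 ± 0.056 (4.96e-04), Cdx2 at 0.39 ± 0.060 (4.5e-06) and Cdx4 at 1.35 ± 0.12 (1.35e-12). The block raised the number of genes called from 75 to 498. Without embryo 2, Cdx4 passed with no block (1.76, 0.0014). Cells with T and Sox2 were somewhat deeper, with a median of 29344.5, 16648 and 21648 UMIs against 28810.5, 14893 and 17085. When cells were thinned to 5000 UMIs before the gates were applied, the differences were 0.09 ± 0.14 for Cdx1 (adjusted p = 0.996), 0.28 ± 0.19 for Cdx2 (0.990) and 0.58 ± 0.37 for Cdx4 (0.967), without a block. The third group, with T and no Sox2, had 113, 227 and 98.6 CPM of Cdx4 and was the highest of the 4 groups in each embryo, and cells with neither had 33.6, 115 and 31.9 CPM.

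**Figure D3:**
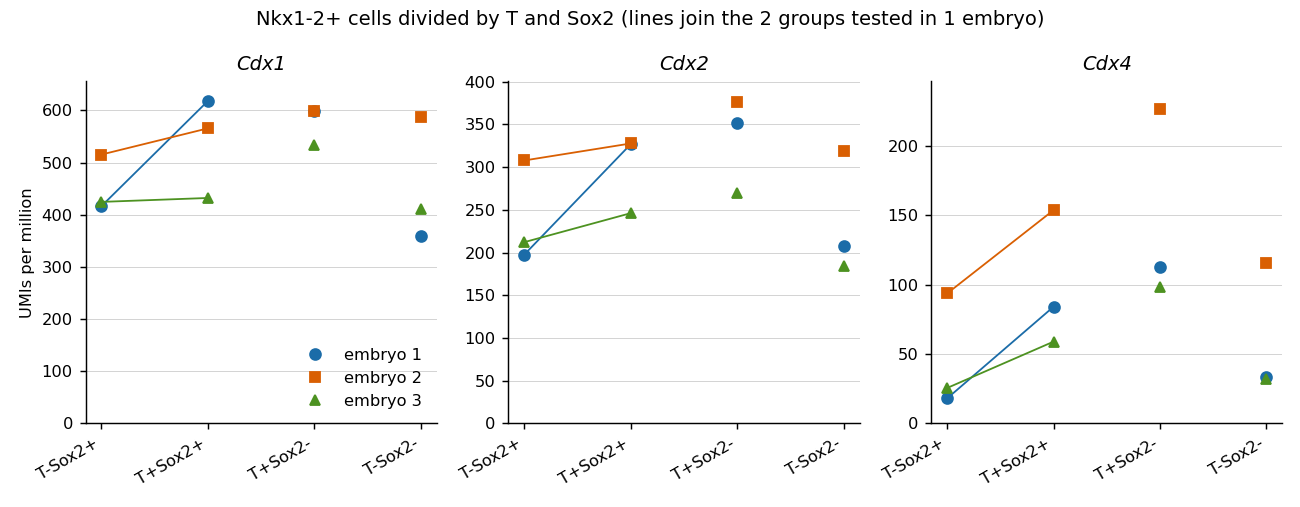
Level of each Cdx gene (CPM) in Nkx1-2+ cells divided by T and Sox2, with 1 symbol per embryo; lines join the groups with Sox2 that were tested. All 9 lines rise from cells without T to cells with T, and Cdx4 is highest in T+Sox2- cells of each embryo.

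In Trh/Sox17+ cells the Cdx genes were found in part of the cells. At least 1 UMI of Cdx2 was seen in 42.3%, 51.1% and 56.1% of Trh/Sox17+ cells and of Cdx1 in 39.9%, 45.6% and 47.4%. Positive cells held a median of 4 Cdx2 UMIs in every embryo, and 4, 3 and 4 Cdx1 UMIs. Cdx4 was detected in 4.70%, 14.3% and 5.26% of these cells, at a median of 1 UMI. Other endoderm cells, with Sox17 and Foxa2 but no Trh, were too few in embryo 1 (6 cells). In embryos 2 and 3 they had 82.5 and 32.8 CPM of Cdx1 and 91.2 and 58.3 CPM of Cdx2, and the differences of Trh/Sox17+ cells from them were 0.83 ± 0.36 (edgeR, adjusted p = 0.4) and 0.77 ± 0.37 (0.473), with 0.61% of genes called. For Cdx4 the difference was -0.80 ± 1.91 (0.935), with 0 UMIs in the 20 other endoderm cells of embryo 3, which allows a share of cells with a UMI of up to 15%.

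Node cells, with Foxj1 and Noto, numbered only 89 but held a high level of Cdx2. It was 241, 174 and 157 CPM in embryos 1, 2 and 3, with a UMI in every cell of embryo 1 and 71.4% and 77.4% of cells of embryos 2 and 3, whereas Cdx1 was at 116, 51.2 and 125 CPM and Cdx4 at 9.08, 5.69 and 16.1 CPM. This class was tested after its levels were seen. Compared with Nkx1-2+ cells (34.4% of genes called), Cdx1 was lower at -2.49 ± 0.21 (edgeR, adjusted p = 1.71e-10), Cdx2 at -0.70 ± 0.19 (0.00522) and Cdx4 at -3.12 ± 0.87 (0.00597), and Cdx2 did not pass without embryo 2 (-0.45, 0.133). Compared with Trh/Sox17+ cells (31% called), Cdx2 was higher by 0.57 ± 0.20 (0.0315), but did not pass without embryo 1 (0.18, 0.635). Cdx1 (-0.01 ± 0.23, 0.977) and Cdx4 (0.19 ± 1.23, 0.936) did not pass.

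Cells expected to lack Cdx RNA gave the background. Erythroid cells were absent from embryo 1, and in embryos 2 and 3 (325 and 63 cells, with a median of 16126 to 18903 UMIs) Cdx1 was seen in 6.46% and 4.76% of cells, Cdx2 in 4.92% and 4.76%, and Cdx4 in 1.23% and 0, which allows a share of cells with a UMI of up to 4.76%. Their levels were 5.44 and 2.39 CPM for Cdx1 and 3.99 and 2.39 CPM for Cdx2. Cardiac cells had 21.6 ± 10.2 CPM of Cdx1, 9.71 ± 7.38 of Cdx2 and 0.734 ± 0.128 of Cdx4. In each of the 5 classes every member was above its erythroid level in CPM, the nearest being Cdx4 at 5.25 CPM in Trh/Sox17+ cells of embryo 3, though embryo 1 had no erythroid cells to compare. Against cardiac cells Cdx1 was not always higher, since they had 31.1 CPM in embryo 3, above the 29.6 CPM of Tbx4+ cells there.

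Anterior neural cells, also expected to lack Cdx RNA, were not free of it. Their Cdx1 level was 23.7, 59.1 and 50.4 CPM in embryos 1, 2 and 3, above Tbx4+ cells in embryos 2 and 3. Their Cdx4 level in embryo 3 was 5.61 CPM, above the 5.25 CPM of Trh/Sox17+ cells there. Elsewhere the 5 classes were above anterior neural cells of the same embryo. Cdx1 was detected in 20.1%, 23.3% and 27.2% of anterior neural cells, and among those with 0 Nkx1-2 UMIs in 15.1%, 16.5% and 20.5%. Where 1 Nkx1-2 UMI was present the share was 54.3%, 67.6% and 72.5%. The part of free RNA in these shares was not tested. Extraembryonic endoderm was unlike these classes, with Cdx2 in 51.9%, 30.1% and 37.2% of cells at a median of 1 UMI (32.7, 25.5 and 32.0 CPM) and Cdx1 at 3.92 ± 1.23 CPM. Surface ectoderm held 130, 237 and 152 CPM of Cdx1 and 133, 122 and 143 CPM of Cdx2. Germ cells numbered only 28, with 201, 181 and 281 CPM of Cdx2 in 9, 7 and 12 cells.

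Shares of positive cells depend on depth, and embryo 1 was the deepest, so every cell was also thinned at random to 5000 UMIs (112 kept cells were shallower). After thinning, Cdx1 was detected in 88.3% ± 3.84 of Nkx1-2+ cells, 90.4% ± 2.64 of Nkx1-2/Tbx6+ cells and 85.5% ± 2.81 of Tbx6+ cells. The share was 12.9% ± 2.61 in Tbx4+ cells, where the unthinned shares had been 49.4%, 24.9% and 18%. From the highest to the lowest share, Cdx2 was detected in Nkx1-2+ (71.9% ± 6.73), Nkx1-2/Tbx6+ (68.9% ± 7.63), Tbx4+ (65.1% ± 8.16), Hand1+ (53.1% ± 2.88), Tbx6+ (46.8% ± 6.32) and Trh/Sox17+ (33.3% ± 7.78), with overlap between neighbours except that Tbx4+ and Hand1+ cells, and Tbx6+ and Trh/Sox17+ cells, were separate. Cdx4 was detected in 38.9% ± 11.6 of Tbx4+, 31.9% ± 13.2 of Nkx1-2+ and 31.5% ± 5.52 of Hand1+ cells, which overlapped, and in 8.97% ± 7.17 of Tbx6+ cells.

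**Figure D4:**
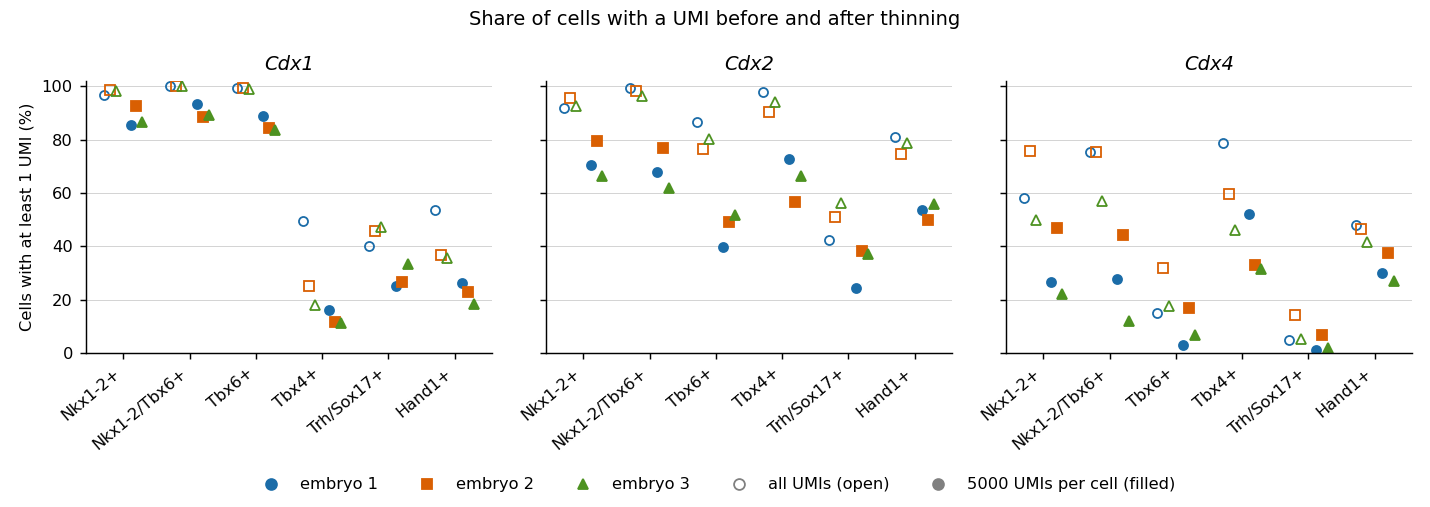
Percent of cells with at least 1 UMI of each Cdx gene in 6 classes, with all UMIs (open symbols) and at 5000 UMIs per cell (filled symbols), by embryo. Cdx1 stays above 80% after thinning in the 3 left classes and below 35% in the others, while Cdx4 in Nkx1-2+ cells runs from 22.1% to 46.9% between embryos.

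The makeup of Cdx RNA differed between classes. Of all Cdx UMIs, Cdx1 gave 54.3% to 61.2% over embryos in Nkx1-2+ cells and 62.8% to 77.5% in Tbx6+ cells, but 8.01% to 8.48% in Tbx4+ cells and 18.6% to 22.3% in Hand1+ cells. Cdx4 gave 26.2% to 38.1% in Tbx4+ cells and 28.6% to 38.4% in Hand1+ cells, against 1.82% to 9.53% in Tbx6+ and 2.15% to 6.18% in Trh/Sox17+ cells. The share of Cdx2 was nearly constant between embryos in Nkx1-2+ cells, 31.9% to 32.3%. Capture of a 3′ end can differ between genes, so these shares are compared between classes and not as molecules of different genes.

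Detection of the members in the same cell was compared with the product of the shares, at 5000 UMIs per cell. The ratio to the product cannot exceed the inverse of the larger share. Where Cdx1 was in most cells, as in Nkx1-2+ and Tbx6+ cells, its pairs could rise little above the product. Ratios of classes with unlike shares are therefore not comparable. In Nkx1-2+ cells, 25.8% ± 11.6 had a UMI of all 3 members, against a product of 21.1%, and 6.53% ± 4.07 had none, against 2.48%. Cdx1 and Cdx2 were seen together in 67.4% ± 7.10 of these cells, 1.02 to 1.10 times the product. In Trh/Sox17+ cells Cdx1 and Cdx2 were found together 1.58 to 2.22 times as often as the product, in 17.3% ± 4.41 against 9.55% of cells, and 55.3% ± 7.73 had none of the 3. This was not particular to Trh/Sox17+ cells. The same pair was at 1.58 to 1.88 times the product in surface ectoderm, 2.19 to 3.85 in somitic and 3.40 to 6.98 in anterior neural cells. Extraembryonic endoderm ranged from 0 to 1.79 times. In Hand1+ cells, Cdx2 and Cdx4 were together in 23.6% ± 3.76 against 16.6% (1.32 to 1.48 times), and 33.6% ± 1.68 had no member against 24.9%. Cdx1 there was above the product with Cdx2 (1.09 to 1.34 times) and with Cdx4 (1.45 to 1.76 times). In Tbx4+ cells Cdx2 and Cdx4 were at 1.00 to 1.07 times the product, and Cdx1 and Cdx4 at 1.30 to 1.95 times. Cdx1 and Cdx2 were at 0.982 to 1.26 times there. Tbx6+ cells had Cdx1 and Cdx4 together at 0.798 to 0.986 times the product, from 7, 22 and 8 cells. Cdx2 and Cdx4 in Tbx6+ cells were at 0.945 to 1.61 times. These ratios are a description without a test.

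**Figure D5:**
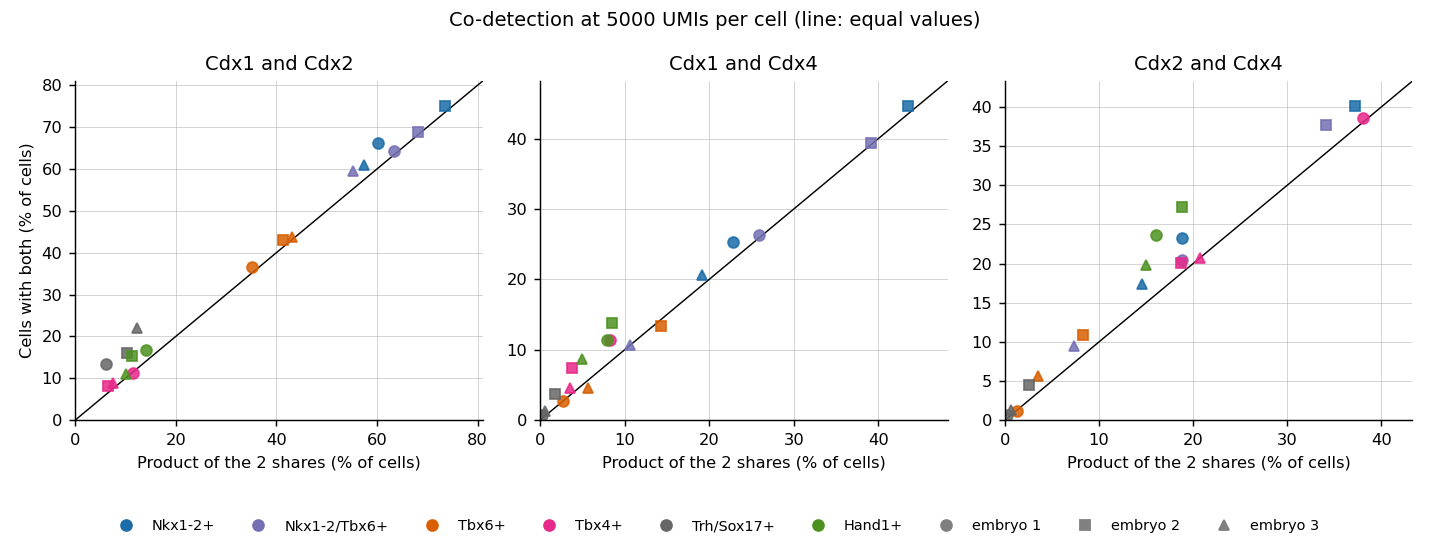
Percent of cells with a UMI of both genes of a pair against the product of the 2 single shares, at 5000 UMIs per cell, for 6 classes (colours) and 3 embryos (symbols), with the line of equal values. Points of Nkx1-2+, Nkx1-2/Tbx6+, Trh/Sox17+ and Hand1+ cells lie above the line for each pair, some of them only just.

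Embryos differed most for Cdx4. Embryo 2 had the highest level in 9 of the 14 classes with enough cells in every embryo, against 6 for Cdx2 and 4 for Cdx1. In Nkx1-2+ cells its level of 140 CPM was more than that of both other embryos together, and in Tbx6+ cells 56.8 CPM stood against 11.5 and 17.1 CPM. Tbx4+ cells went the other way, with embryo 1 highest at 205 CPM, from 89 cells.

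Genes of the posterior growth zone (Wnt, FGF and retinoic acid components and T-box factors, 22 listed and tested) were counted in the same tests. Against Trh/Sox17+ cells, 16 were higher in Nkx1-2+ cells and 3 lower where 47.5% of all genes were called, with a median log2 difference of 1.97 over the list and -0.01 over all genes. Among them Wnt3a, the ligand of the growth zone, was higher by 4.18 ± 0.34 (edgeR, adjusted p = 1.59e-09), as all 3 members were. Sp5, a Wnt target, was lower at -0.64 ± 0.14 (7.82e-04). Some listed genes were near 0 in Trh/Sox17+ cells, such as Wnt3a (0.919 CPM, against 17.2 in Nkx1-2+ cells) and Fgf4 (0.186 against 6.35). They could pass the filter on low counts only through classes where they were higher. Their direction between those classes and Trh/Sox17+ cells was thus fixed in advance. Wnt3a was also low in Tbx4+ cells, at 1.11 CPM, so that the same holds there. Against Tbx4+ cells 13 of the list were higher in Nkx1-2+ cells and 3 lower (median 1.07, 37% of all genes called), and against Hand1+ cells 9 and 4 (0.34, 33.4% called). Nkx1-2+ cells had 3 higher and 9 lower than Tbx6+ cells (-0.30, 12.2% called), the gate gene Tbx6 being 1 of the 9. The 3 were Wnt8a (1.15 ± 0.23), Sp8 (1.15 ± 0.17) and Rarg (1.00 ± 0.18), which changed in the direction of Cdx2 and Cdx4. Tbx4+ cells had 1 higher and 10 lower than Hand1+ cells (-1.21, 7.7% called), the direction of Cdx1. Cdx2 and Cdx4 had the opposite sign in that comparison, where neither passed without a block. In cells with T and Sox2 against Sox2 alone, 10 of 21 tested were higher and 1 lower (0.93, 0.744% called), T itself being a gate gene.

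Hox genes of paralogue groups 4 to 9, which Cdx proteins are known to regulate, were listed as 20 features, Hoxd4 as 2 of them, and 18 features, each of another gene, were tested. They were higher in Nkx1-2+ than in Trh/Sox17+ cells for 12 and lower for 0 (47.5% of all genes called), and against Tbx6+ cells 3 were higher and 3 lower (12.2% called). Hoxb7 (2.05 ± 0.38), Hoxb8 (2.13 ± 0.39) and Hoxb9 (2.54 ± 0.36) were higher than in Tbx6+ cells, with Cdx2 and Cdx4, and Hoxa4 (-1.16 ± 0.26), Hoxa5 (-1.24 ± 0.19) and Hoxb5 (-0.92 ± 0.18) were lower. Tbx4+ cells were higher than Trh/Sox17+ cells for 17 (45.2% called) and than Hand1+ cells for 10 (7.7% called), with none lower. Some of these genes were near 0 in Trh/Sox17+ cells. Hoxc6 and Hoxc9 had means of 0.119 and 0.695 CPM there and 29.6 and 59.6 CPM in Tbx4+ cells. Hoxa4 had 0.721 CPM there and 6.02 CPM in Nkx1-2+ cells. Such genes could pass the filter on low counts only through classes where they were higher. Their direction between those classes and Trh/Sox17+ cells was thus fixed in advance. Of the groups 10 to 13, which mark the most posterior positions, 8 of 12 were tested, and all 8 were lower in Nkx1-2+ and in Tbx6+ cells than in Tbx4+ cells, where 37% and 30.1% of all genes were called. All 8 were likewise lower in both classes than in Hand1+ cells (33.4% and 23.1% called), where Hoxa10 was at 20.7 ± 6.01 CPM. These genes had means of at most 0.604 CPM in Nkx1-2+ and Tbx6+ cells. They could pass the filter on low counts only through classes where they were higher. The direction of their differences from Nkx1-2+ and Tbx6+ cells was thus fixed in advance. Hoxa10, Hoxa11 and Hoxa13 were also check genes of Tbx4+ cells. Tbx4+ cells were higher than Hand1+ cells for 7 of the 8 (7.7% called). Among the 8, Hoxd11, Hoxd13 and Hoxc11 had means of at most 1.74 CPM in Hand1+ cells. Their direction in this comparison was likewise largely set by the filter. Hoxa10 was at 121 ± 5.94 CPM in Tbx4+ cells and at 0.604 ± 0.429 CPM in Nkx1-2+ cells, although Cdx2 did not pass between these classes.

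The genes most like each member were found by Pearson's r of log2(CPM + 1) over 42 sums (14 classes in 3 embryos), as a description, since the sums share libraries and 3 of them come from each class. Nearest to Cdx1 were Gbx2 (r = 0.92), Cachd1 (0.90), Nr6a1 (0.90), Celf4 (0.89) and the noncoding RNA Hotairm1 (0.89). For Cdx2 they were the ligand Wnt5b (0.90), the homeobox gene Evx1 (0.89), the Wnt effector Tcf7 (0.89), the antisense transcript Evx1os (0.87) and the Wnt inhibitor Notum (0.84), with Cdx4 in the sixth place at 0.83. For Cdx4 they were Hoxb9 (0.91), Evx1os (0.87), Evx1 (0.87), Hoxb8 (0.87) and Hoxc4 (0.86). Cdx1 was less like Cdx2 (0.67) and Cdx4 (0.60). None of these was a gate gene.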

How the data were processed

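Single-cell 3′ libraries (10x Genomics, version 3 chemistry) of 3 embryos were used. The authors deposited raw UMI counts per feature and cell barcode, made with Cell Ranger 3.1.0 on mm10 with EGFP added, without normalization. Per the labels, stage is given as 0 to 1 somite in the protocol and up to 2 somites in another field. Barcodes with fewer than 1500 genes, with more than 8500, 7500 and 8500 genes in embryos 1, 2 and 3, or with over 10% mitochondrial UMIs were removed, which left 22168 cells. Of 16 first-round clusters (Seurat 5.3.0, resolution 0.3), 3 were removed: 1 in which over 50% of cells were in the top 6% of Scrublet scores (scanpy 1.11.5), and 2 with low mitochondrial shares. Kept cells were 5785, 7729 and 7688.

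Classes were set by marker UMIs and not by clustering. UMIs were summed per class and embryo (at least 10 cells) and tested with edgeR 4.0.16 in R 4.3.3 (filterByExpr, TMM, glmQLFit, glmQLFTest), in 1 fit per set of classes, with Benjamini-Hochberg adjustment over all genes and a threshold of 0.05. Standard errors came from the F statistic. On simulated counts for Nkx1-2 against Tbx6 (11935 genes), 93.9% of 4-fold and 76.0% of 2-fold changes were recovered and 3.49% of calls were false. Apart from the changed genes, these counts had the same mean in every class, and they had no embryo effect. They therefore do not measure how the test behaves with paired classes. Classes of an embryo come from the same animal, so that the embryo number pairs them. Correlations of same-numbered deviations were 0.107 to 0.542 in 13 comparisons, 0.0638 to 0.0685 for other endoderm and 0.0613 to 0.133 for the node. Shares of 0 were given the limit that 3 counts allow, which covers counting error only. Alternatives were no cluster removal, top doublet scores removed, marker thresholds of 1 and 3 UMIs, thinning to 5000 UMIs, DESeq2 (1.42.0), its size factors in edgeR, a fit of unfiltered genes, a block for the embryo, a fit of only the compared classes, and leaving out each embryo.

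Named genes are the members, gate and check genes, a growth zone list of 22, Hox groups 4 to 9 and 10 to 13, and the 5 genes with the highest Pearson r with each member. The members, classes and lists were chosen with earlier results of these data known, the node tests after its levels were seen. Gene coordinates are from GENCODE M21 (GRCm38), promoters from RefSeq.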

Additional observations from a re-analysis of the deposited data

How the results depend on the processing

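Log2 differences of the members kept their direction and their side of the threshold in 548 of 618 combinations of comparison and alternative. The embryo as a block (a paired fit) brought 8 differences past the threshold and lost none: Cdx1 for Nkx1-2 against Tbx6 (0.28), Cdx4 for Nkx1-2 against Tbx4 (-0.79) and Hand1 (-0.54), Cdx2 for Tbx4 against Hand1 (0.51), Cdx4 for Nkx1-2/Tbx6 against Tbx6 (1.43), and Cdx1 (0.28), Cdx2 (0.39) and Cdx4 (1.35) for T+Sox2+ against T-Sox2+ cells; only Cdx1 for node against Trh/Sox17, not called in either, changed sign (0.0066).

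Without a filter on low counts, calls were gained by Cdx1 for Nkx1-2 against Tbx6 (0.30), Cdx2 for Nkx1-2 against Tbx4 (0.25), Tbx6 against Trh/Sox17 (0.28), Tbx4 against Hand1 (0.51) and T+Sox2+ against T-Sox2+ (0.33), and Cdx4 for Nkx1-2 against Tbx4 (-0.71) and Hand1 (-0.44), Nkx1-2/Tbx6 against Nkx1-2 (-0.43) and Tbx6 (1.29), and T+Sox2+ against T-Sox2+ (1.20). Cdx2 for Tbx4 against Hand1 also passed without cluster removal (0.52), with top doublet scores removed (0.57), with a marker threshold of 1 (1.01) and with only these classes in the fit (0.52). DESeq2 lost Cdx4 for Nkx1-2 against Tbx6 (1.55).

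With a marker threshold of 1, calls were lost for Cdx1 (0.46) and Cdx2 (-0.15) in Trh/Sox17 against Hand1, Cdx4 in Tbx6 against Trh/Sox17 (1.09), and Cdx2 in node against Nkx1-2 (-0.59) and Trh/Sox17 (0.70), and gained for Cdx4 in Nkx1-2/Tbx6 against Tbx6 (2.01) and Cdx1 in node against Trh/Sox17 (-1.20). The sign turned for Cdx1 (0.080) and Cdx4 (0.015) in Nkx1-2/Tbx6 against Nkx1-2, Cdx2 in Tbx6 against Hand1 (0.083), Cdx4 in Trh/Sox17 against other endoderm (0.10) and Cdx4 in node against Trh/Sox17 (-2.90). A threshold of 3 lost Cdx2 in Nkx1-2/Tbx6 against Tbx6 (0.69) and in node against Trh/Sox17 (0.31). Thinning gained Cdx2 for Nkx1-2 against Tbx4 (0.61) and Cdx1 (0.99) and Cdx2 (1.14) for Trh/Sox17 against other endoderm, lost Cdx4 for Tbx6 against Trh/Sox17 (0.92) and Cdx2 for node against Trh/Sox17 (0.50), and turned Cdx4 for Tbx4 against Hand1 (-0.077), Trh/Sox17 against other endoderm (2.56) and node against Trh/Sox17 (-1.02). Cdx1 for node against Trh/Sox17, near 0, turned with DESeq2 (0.12), its size factors (0.14) and only those classes (0.081). The causes were not tested.

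Leaving out each embryo gave ranges of 0.24 to 0.65 for Cdx1 in Trh/Sox17 against Hand1 and -0.71 to -0.28 for Cdx2 there, -0.0018 to 0.41 for Cdx2 in Nkx1-2 against Tbx4, 0.64 to 0.80 for Cdx2 in Nkx1-2/Tbx6 against Tbx6, and -0.89 to -0.45 and 0.18 to 0.90 for Cdx2 in node against Nkx1-2 and Trh/Sox17. For Cdx4 they were 1.41 to 2.02 in Nkx1-2 against Tbx6, -1.36 to -0.17 against Tbx4, -0.85 to -0.26 against Hand1, 0.82 to 1.92 in Nkx1-2/Tbx6 against Tbx6, 0.85 to 1.76 in T+Sox2+ against T-Sox2+, 1.34 to 1.75 in Tbx6 against Trh/Sox17, -0.091 to 0.51 in Tbx4 against Hand1, -1.69 to 8.46 in Trh/Sox17 against other endoderm and -0.50 to 1.16 in node against Trh/Sox17, where Cdx1 ranged from -0.23 to 0.37.

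Counts of genes called moved by over 1.5 times in 51 of 206 cases. Thinning gave 382 calls for Nkx1-2 against Tbx6 (1516 in the full data), 1521 against Tbx4 (4604), 2643 against Trh/Sox17 (5916) and 1816 against Hand1 (4154). It gave 1041, 1886 and 975 for Tbx6 against Tbx4, Trh/Sox17 and Hand1 (3743, 5341 and 2877), 2209 and 176 for Tbx4 against Trh/Sox17 and Hand1 (5627 and 959), 2555 for Trh/Sox17 against Hand1 (5336), 4 for T+Sox2+ against T-Sox2+ (75), and 2257 and 1828 for node against Nkx1-2 and Trh/Sox17 (4512 and 4069). The block gave 2565 for Nkx1-2 against Tbx6, 2069 for Tbx4 against Hand1, 470 and 541 for Nkx1-2/Tbx6 against Nkx1-2 (232) and Tbx6 (190), and 498 for T+Sox2+ against T-Sox2+. Unfiltered genes gave 434, 428 and 203 in the last 3 comparisons, and marker thresholds of 1 and 3 gave 360 and 135, then 379 and 77, for Nkx1-2/Tbx6 against Nkx1-2 and Tbx6. Trh/Sox17 against other endoderm (76) ranged from 1 without embryo 3 to 609 after thinning, with 125 without cluster removal, 46 at a threshold of 1, 157 in DESeq2, 255 unfiltered, 152 with the block and 44 without embryo 2. Without single embryos, counts were as low as 713 for Nkx1-2 against Tbx6 (embryo 1), 3007 against Tbx4 (embryo 3), 2333 and 1862 for Tbx6 against Tbx4 and Hand1 (embryo 3), 314 for Tbx4 against Hand1 (embryo 2), 82 and 29 for Nkx1-2/Tbx6 against Nkx1-2 and Tbx6 (embryo 1), 14 for T+Sox2+ against T-Sox2+ (embryo 1), and 2480 and 2301 for node against Nkx1-2 and Trh/Sox17 (embryo 1). Of levels in CPM, 126 of 141 moved by less than 1 SD. After thinning, too few Nkx1-2/Tbx6 cells were left for a sum, so those comparisons were not run. Positive Trh/Sox17+ cells held a median of 1 Cdx4 UMI in each embryo, which limits its shares there.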

Other observations

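Values in 3 further classes follow. In somitic cells (Meox1 and Tcf15) of embryos 1, 2 and 3, Cdx1 was at 46.8, 97.4 and 85.7 CPM and Cdx2 at 9.97, 33.3 and 34.8 CPM, with Cdx4 at 4.57 ± 3.78 CPM. Embryo 1 was the lowest for each of them. Neural plate cells without Otx2 and Nkx1-2 had 55.3, 62.5 and 83.3 CPM of Cdx1, 20.6 ± 8.44 CPM of Cdx2 and 2.14 ± 1.02 CPM of Cdx4. In endothelium (Kdr and Esam) Cdx1 was at 12.7 ± 4.24 CPM and Cdx2 at 12.8 ± 5.67 CPM, and 89.1% ± 3.53 of cells had no member at 5000 UMIs per cell. These values were not tested.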
